A study of Mus musculus with 4 samples.

Results

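The let-7 family and its close relative miR-98 were followed in the liver of WT and *Clock* mutant mice. The family was represented on the microarray by 9 mature miRNAs, mmu-let-7a, mmu-let-7b, mmu-let-7c, mmu-let-7d, mmu-let-7e, mmu-let-7f, mmu-let-7g, mmu-let-7i and mmu-miR-98, of 611 mouse miRNAs in all. They were taken by name, without the star strands (the other arm of the hairpin). All 9 were among the 123 mouse miRNAs detected on all 4 arrays.

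The microarray experiment had 1 array for each of 4 conditions, since both genotypes were sampled at both times of day. Zeitgeber time counts from lights on, so ZT2 (2 h) is early in the light phase and ZT14 (14 h) early in the dark phase. RNA for each array came from the pooled livers of 3 male mice aged 6 to 8 weeks, kept in single cages under 12 h of light and 12 h of dark for 2 weeks. The mutant mice carried *Clock*Δ19, an allele that makes a CLOCK protein able to pair with BMAL1 but poor at activating transcription. Whether they carried 1 or 2 copies, and the strain of the WT mice, are not given in the sources used here. There was no replicate of any condition, so a ratio of 2 arrays has no test. In RNA of a whole liver, fewer cells of a type and less of a miRNA per cell cannot be told apart.

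let-7 miRNAs are processed from hairpin precursors by DROSHA and DICER, and LIN28 blocks this processing in stem and early embryonic cells. Mature let-7 accumulates as tissues differentiate and is abundant in adult liver. It guides ARGONAUTE to messenger RNAs that pair with its seed, the bases at positions 2 to 8 from the 5′ end, and the known targets include *Lin28*, *Hmga2* and *Ras* genes. In hepatocytes, let-7 has also been studied in insulin signalling and glucose handling.

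The mature sequences are shown because the members share a seed and differ in only a few of the other bases, and because each result is given for a single member. RefSeq (GRCm38.p6) held a 5′ arm for all 9 members. Each is written from 5′ to 3′, with the seed in capitals.
mmu-let-7a: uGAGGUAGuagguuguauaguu
mmu-let-7b: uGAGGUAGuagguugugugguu
mmu-let-7c: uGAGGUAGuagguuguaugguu
mmu-let-7d: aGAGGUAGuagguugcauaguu
mmu-let-7e: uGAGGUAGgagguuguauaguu
mmu-let-7f: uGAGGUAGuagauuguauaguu
mmu-let-7g: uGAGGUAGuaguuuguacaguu
mmu-let-7i: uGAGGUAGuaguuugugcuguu
mmu-miR-98: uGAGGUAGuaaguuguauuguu

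The seed was the same in all 9 members and was found in 11 of the 1679 mature names of the RefSeq table, which is 0.655%. The remaining 2 names, mmu-let-7k and mmu-miR-1961, were not on the array. Counted from 1 at the 5′ end and with the base of let-7a first, let-7c differed from let-7a by A19G. let-7b differed by A17G and A19G, let-7e by U9G and let-7f by G12A. The substitutions were U1A and U16C in let-7d, G12U and U18C in let-7g, G12U, A17G, U18C and A19U in let-7i, and G11A and A19U in miR-98. A pair of members differed at 1 to 6 positions, and only let-7b and let-7c shared A19G. Each member was read by 2 probes of 10 spots each. Signal in a probe that came from another member was not tested, since the probe sequences are not in the files used here.

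The genes of the family lie in small clusters, given here in the coordinates of GRCm38.p6. *Mirlet7a-1*, *Mirlet7f-1* and *Mirlet7d* are neighbours on chromosome 13, with mature let-7a at chr13:48538239-48538260, let-7f at chr13:48537889-48537910 and let-7d at chr13:48536078-48536099, all on the minus strand. *Mirlet7c-2* and *Mirlet7b* lie 621 bases apart on the plus strand of chromosome 15, with the mature sequences at chr15:85706616-85706637 and chr15:85707325-85707346. *Mir99a* and *Mirlet7c-1* are 656 bases apart on the plus strand of chromosome 16, where mature let-7c is at chr16:77599672-77599693. *Mirlet7e* and *Mir125a* are 367 bases apart on the plus strand of chromosome 17, with let-7e at chr17:17830366-17830387. On the plus strand of chromosome X, *Mirlet7f-2* and *Mir98* are 785 bases apart, with let-7f at chrX:151912353-151912374 and miR-98 at chrX:151913229-151913250. *Mirlet7a-2* lies between *Mir100* and *Mir125b-1* on chromosome 9, 5211 bases from the first and 45114 bases from the other. let-7g, at chr9:106178846-106178867 on the plus strand, and let-7i, at chr10:122985698-122985719 on the minus strand, had no other gene of these families within 60000 bases. let-7a, let-7c and let-7f are each made from genes on different chromosomes, so their signal cannot be assigned to 1 gene.

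The arrays carried 13715 spots each, and 138 to 193 mouse miRNAs were detected on an array. Signals were scaled to the 75th percentile of the 123 shared miRNAs. It was 339.9 intensity units for WT at ZT14 and 503 to 537 units for the remaining arrays, so WT at ZT14 was the dimmest by this measure. Its spike-ins were not dimmer, with a mean log2 signal of 12.72 against 12.56 to 12.64 on the remaining arrays. The source of its lower miRNA signal was not tested. The 3 miRNAs of the hepatocyte list, miR-122, miR-192 and miR-194, were detected on all 4 arrays, with a summed scaled level of 96.0 to 122. The 3 muscle miRNAs listed, miR-1, miR-133a and miR-133b, were detected in WT at ZT2, with a summed scaled level of 0.308, and 0 of 3 were detected on any other array. The 3 red blood cell miRNAs summed to 5.94 in the mutant at ZT2 and to 2.56 to 3.34 on the other arrays, with miR-486 detected in the mutant at ZT2 only. The array of WT at ZT2 was also highest for the leukocyte list, at 1.20 against 0.630 to 0.783, and for the bile duct list, at 0.202 against 0.0673 to 0.123. The part of these cells in the ratios below was not tested.

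All 720 spots of the 9 members were well above background, and 24 of them (3.33%) were outliers and left out. Member signals were 6.97 times to 855 times the mean negative control signal of the same array, the lowest being miR-98 in WT at ZT14 and the highest let-7f in the mutant at ZT2. The summed intensity of the 9 members was set against the summed signal of the 123 shared miRNAs. It made up 11.6% and 12.0% of that signal in WT and mutant at ZT2, and 12.3% and 12.5% at ZT14. Without miR-122 in the total, the shares were 18.8% and 20.4% at ZT2 and 19.8% and 21.7% at ZT14. The summed scaled level of the members was instead lower at ZT14. It was 29.5 and 32.6 in WT and mutant at ZT2, and 28.1 and 29.2 at ZT14. The percentages are shares of fluorescence and not of molecules, since probes differ in brightness. The brighter probe of a member was 1.48 times (miR-98) to 3.63 times (let-7f) as bright as the dimmer one.

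The scaled levels, relative to the 75th percentile of the array, are given in the order WT at ZT2, mutant at ZT2, WT at ZT14 and mutant at ZT14. The levels of let-7b were 2.76, 3.61, 2.92 and 3.09. For let-7c they were 3.60, 4.48, 3.64 and 4.06. Both members were highest in the mutant at ZT2 and lowest in WT at ZT2, and on this scale the mutant was above WT at both times. let-7a stood at 6.82, 7.43, 6.48 and 6.96, and let-7f at 8.67, 8.91, 7.76 and 8.01. let-7d stood at 2.05, 2.23, 2.07 and 2.004, and let-7g at 4.17, 4.57, 3.97 and 3.89. These 4 members were also highest in the mutant at ZT2. The order was different for the 3 remaining members, which were highest in WT at ZT2. let-7e stood at 0.313, 0.262, 0.257 and 0.271. The levels of let-7i were 0.963, 0.921, 0.844 and 0.787, and those of miR-98 were 0.192, 0.173, 0.171 and 0.171. For let-7f and let-7i the highest array led the next by less than the spot SD, which is defined below. For let-7b and let-7c, WT at ZT2 was below WT at ZT14 by less than the spot SD. The highest and the lowest level of a member differed 1.11-fold (let-7d) to 1.31-fold (let-7b). The median of this range was 1.17-fold over the 9 members and 1.28-fold over the 123 shared miRNAs.

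**Figure D1:**
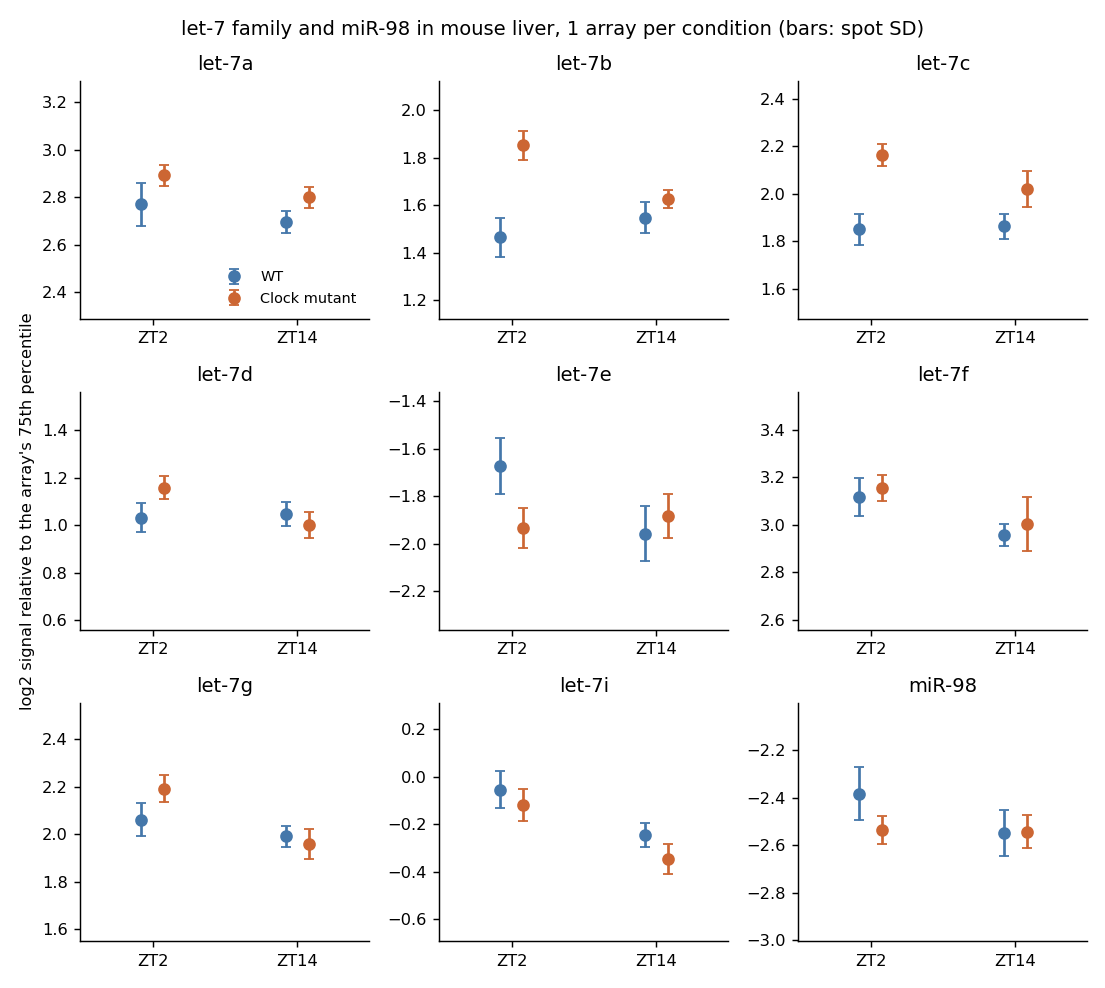
Scaled signal of each member on the 4 arrays. Each panel is 1 miRNA, the vertical axis is the log2 signal relative to the 75th percentile of the array over a span of the same height in all panels, points are single arrays of WT and *Clock* mutant liver at ZT2 and ZT14, and bars are the spot SD. let-7b and let-7c show the widest gap between genotypes at ZT2, with levels of 2.76 and 3.61 for let-7b and of 3.60 and 4.48 for let-7c.

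The first comparison asked which family members differed between mutant and WT liver at ZT2. let-7b and let-7c had the highest ratios of the family and let-7e the lowest, while the others lay between. The log2 ratio of mutant to WT was 0.39 for let-7b (1.31-fold) and 0.31 for let-7c (1.24-fold), with a spot SD of 0.10 and 0.081. The spot SD is the SD of the log2 signal over the spots of a probe, combined over both arrays. It measures the error within arrays and leaves out the spread between pools of mice. Both probes of let-7b gave a ratio above 0, 0.32 and 0.42, as did those of let-7c, 0.34 and 0.23. let-7b and let-7c were higher in the mutant also under all 10 alternatives of scaling, background and probe choice, with ratios of 0.16 to 1.20 for let-7b and of 0.088 to 1.12 for let-7c.

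let-7e had a log2 ratio of -0.26 with a spot SD of 0.15, and its probes gave -0.34 and -0.22. This direction turned when the 75th percentile was taken over all 611 miRNAs (0.05) and in the log2 table of the authors (0.55). The ratio of miR-98 was -0.15 (spot SD 0.13), and it was above 0 under 3 of the 10 alternatives. The ratios of let-7a, let-7d and let-7g were close to each other, 0.12, 0.13 and 0.13, with spot SDs of 0.10, 0.079 and 0.091, and each was below 0 under 1 to 3 alternatives. let-7f (0.04) and let-7i (-0.07) were within their spot SDs of 0.096 and 0.10, and the 2 probes of let-7f gave opposite signs.

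Set against all 123 shared miRNAs, these were modest ratios. No member reached 2-fold at ZT2, where 1.63% of the shared miRNAs did, and none reached 1.5-fold, where 10.6% did. The ratios of 5 members were above 0 by more than their spot SD, against 28.5% of the shared miRNAs, and those of 2 members were below 0 by more than it, against 30.1%. The median ratio of the members was 0.12, beside -0.01 over the 123. It was -0.10 with the summed signal of the scanner and within 0.003 of 0 with the brightest probe alone. In the same settings the median over the 123 was -0.18 and -0.16, so it moved down with that of the members. By size of the ratio, let-7b ranked 6 and let-7c 13 of 123, counted from the highest, and let-7e ranked 97. The range of the members, -0.26 to 0.39, lay inside the range of the other 114 miRNAs, -1.85 to 0.84.

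Differences between members on the same pair of arrays do not depend on a scaling that divides each array by 1 number. Of the 36 pairs of members, 26 had ratios at ZT2 that differed by more than their combined spot SD, against 54.8% of all pairs of the 123 shared miRNAs. The widest gap was between let-7b and let-7e, 0.64 on the log2 scale with a spot SD of 0.18. Over the 10 alternatives, 6 of which leave this gap unchanged by construction, it was 0.50 to 0.67. Under all 10 alternatives let-7b and let-7c were the highest pair and let-7e the lowest member, an order that only 4 of them could change. let-7b and let-7c were the only members with A19G, and let-7e the only one with U9G. let-7b also shares A17G with let-7i, and their ratios were 0.45 apart (spot SD 0.14). The median gap was 0.14, 0.27, 0.35, 0.25, 0.19 and 0.19 for pairs that differ at 1 to 6 bases. These values come from 4, 10, 11, 9, 1 and 1 pairs, and the pairs share members. At 1 base alone the gap ran from 0.073 to 0.38. A link of ratio to sequence was not tested. let-7b and let-7c, which differ at 1 base, had ratios 0.073 apart, within the spot SD of 0.13. let-7a and let-7c also differ at 1 base, and their ratios were 0.19 apart (spot SD 0.13). The gap between let-7a and let-7e, again at 1 base, was 0.38 (spot SD 0.18), and between let-7a and let-7f it was 0.084 (spot SD 0.14).

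**Figure D2:**
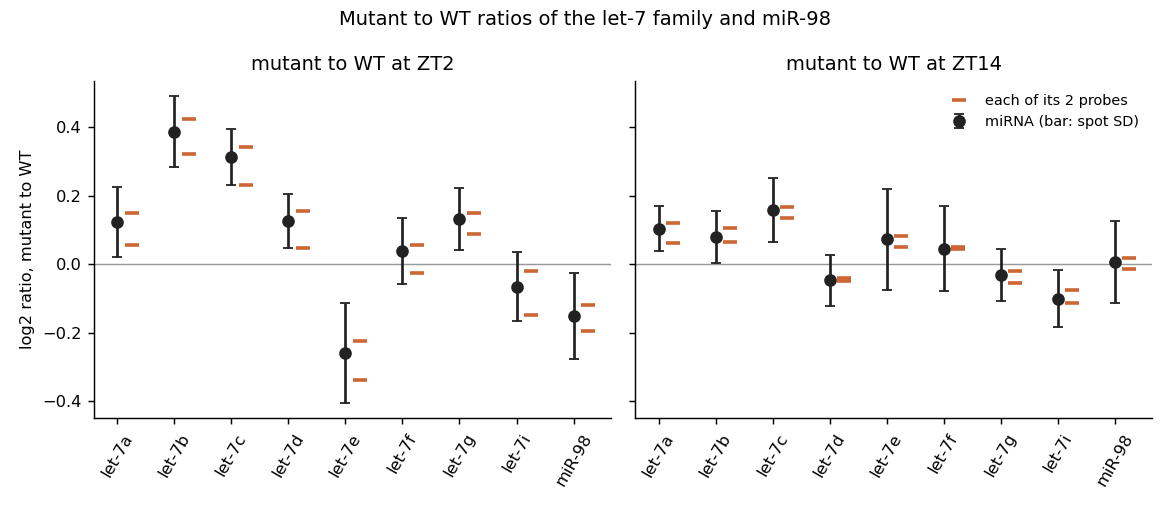
Ratio of *Clock* mutant to WT for each member at ZT2 (left) and ZT14 (right). The vertical axis is the log2 ratio of scaled signals, black points are the miRNA with the combined spot SD as the bar, and coloured dashes are its 2 probes. At ZT2 the members spread from -0.26 (let-7e) to 0.39 (let-7b), and at ZT14 from -0.10 (let-7i) to 0.16 (let-7c).

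At ZT14 the members lay closer together. Their SD was 0.082 on the log2 scale, beside 0.21 at ZT2, and 11 of the 36 pairs differed by more than their combined spot SD, against 51.2% of all pairs of shared miRNAs. let-7c was again on the high side, with a log2 ratio of 0.16 (spot SD 0.092) and a ratio above 0 under all 10 alternatives. It was the highest member in each, though 6 of them leave the order of the members unchanged by construction. let-7b had a ratio of 0.08, about as large as its spot SD of 0.075, and let-7a a ratio of 0.10 (spot SD 0.065). The lowest member was let-7i, at -0.10 (spot SD 0.083). It turned above 0 under 4 alternatives, and with normexp background correction miR-98 was the lowest. The ratios of let-7d (-0.05), let-7e (0.07), let-7f (0.05), let-7g (-0.03) and miR-98 (0.01) were within their spot SDs of 0.074 to 0.15.

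No member reached 2-fold or 1.5-fold at ZT14, where 6.5% and 13% of the 123 shared miRNAs did. The ratios of 3 members exceeded the spot SD upwards, against 21.1% of the shared miRNAs, and that of 1 member downwards, against 31.7%. The median ratio of the members was 0.05, beside -0.03 over the 123 shared miRNAs. With the summed signal these medians were -0.01 and -0.04. With no scaling the median was 0.70 over the members and 0.63 over the 123 shared miRNAs. With spike-in scaling the medians were 0.86 and 0.78. In both settings the lower miRNA signal of WT at ZT14 stays in the ratio, and its source was not tested.

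The change of the genotype ratio between the times was then computed for each member as the ratio at ZT14 minus that at ZT2. let-7b had the lowest value, -0.31 (spot SD 0.13), and let-7e the highest, 0.33 (spot SD 0.21). let-7b was the lowest member under all 10 alternatives, 6 of which leave the order of the members unchanged by construction. Its value ran from -0.44 in the table of the authors to 0.57 with spike-in scaling, and it was above 0 under 2. let-7e stayed above 0, from 0.066 with normexp, where let-7f was the highest member, to 1.21 with spike-in scaling. The values for let-7d, let-7g and let-7c were -0.17, -0.16 and -0.16, with spot SDs of 0.11, 0.12 and 0.12. These 5 of the 9 members were beyond their spot SD, against 47.2% of the shared miRNAs. let-7c and let-7g turned above 0 under 6 of the 10 alternatives and let-7d under 4. let-7a (-0.02), let-7f (0.01), let-7i (-0.03) and miR-98 (0.16, spot SD 0.17) were within their spot SDs. The median was -0.03 over the members and -0.06 over the 123 shared miRNAs. This median follows the scaling, and over the members it was 0.71 with no scaling and 0.84 with spike-in scaling. These differences rest on 1 array per condition and were not tested.

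The ratios of ZT14 to ZT2 were mostly below 0 in both genotypes. They were above 0 for 3 members in WT and for 1 in the mutant, beside 22.8% and 17.1% of the shared miRNAs. In WT, let-7e had the lowest ratio, -0.28 (spot SD 0.17), followed by let-7i, -0.19 (spot SD 0.092), miR-98, -0.17 (spot SD 0.15), and let-7f, -0.16 (spot SD 0.092). let-7e was -0.02 with quantile normalization, where let-7i was the lowest, and -0.03 with normexp, where let-7f was, and miR-98 was above 0 under 4 of 9 alternatives. With the scaling used here these 4 members were below 0 by more than the spot SD, against 45.5% of the shared miRNAs. let-7a (-0.07), let-7g (-0.07), let-7c (0.01), let-7d (0.02) and let-7b (0.08) were within theirs, and no member was above 0 by more than the spot SD, against 6.5% of the shared miRNAs. No member reached 2-fold (2.44% of the shared miRNAs) or 1.5-fold (12.2%). The median ratio of the members in WT was -0.07, beside -0.13 over the 123 shared miRNAs. It was 0.22 with the percentile of all 611 miRNAs and 0.15 with median scaling. In these settings the median of the 123 was 0.17 and 0.095.

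In the mutant, 7 members were below 0 by more than the spot SD, against 55.3% of the shared miRNAs, and 0 were above, against 4.07%. let-7g, let-7b and let-7i had the lowest log2 ratios of ZT14 to ZT2, each -0.23, with spot SDs of 0.086, 0.073 and 0.092. let-7d (-0.16), let-7f (-0.15), let-7c (-0.14) and let-7a (-0.09) followed, while miR-98 (-0.01) and let-7e (0.05) were within their spot SDs. Again none reached 2-fold (7.32% of the shared miRNAs) or 1.5-fold (10.6%). The median ratio of the members was -0.15, beside -0.17 over the 123. The percentile of all 611 miRNAs turned that of the members to 0.34 and median scaling to 0.05. In these settings the median of the 123 was 0.33 and 0.038. For let-7e, WT at ZT2 stood above the remaining arrays by more than the spot SD, and this array enters both its genotype ratio at ZT2 and its time ratio in WT.

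**Figure D3:**
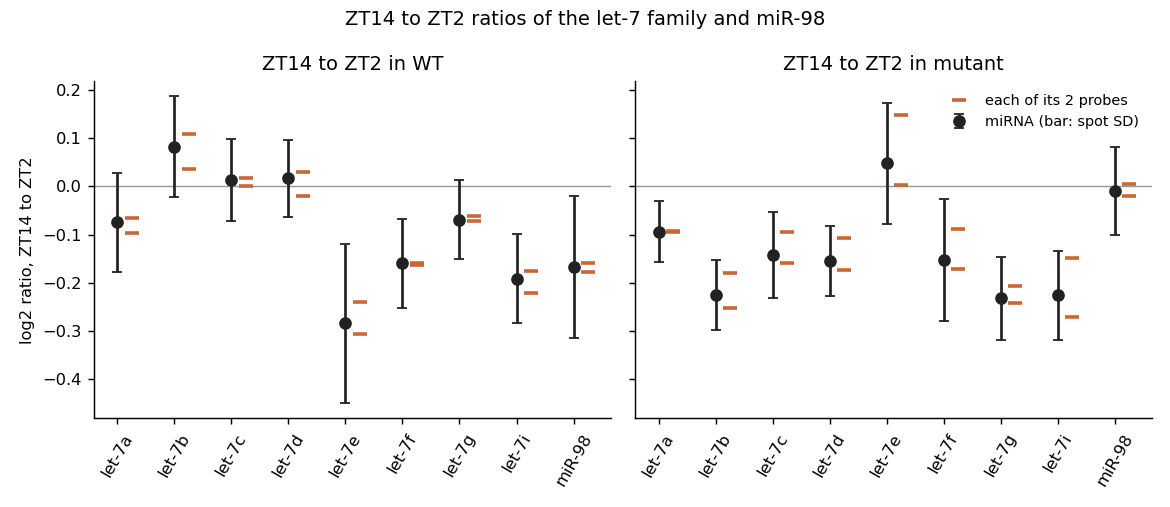
Ratio of ZT14 to ZT2 for each member in WT (left) and *Clock* mutant (right). The vertical axis is the log2 ratio of scaled signals, black points are the miRNA with the combined spot SD as the bar, and coloured dashes are its 2 probes. let-7b is at 0.08 in WT and at -0.23 in the mutant, and let-7e at -0.28 in WT and at 0.05 in the mutant.

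**Figure D4:**
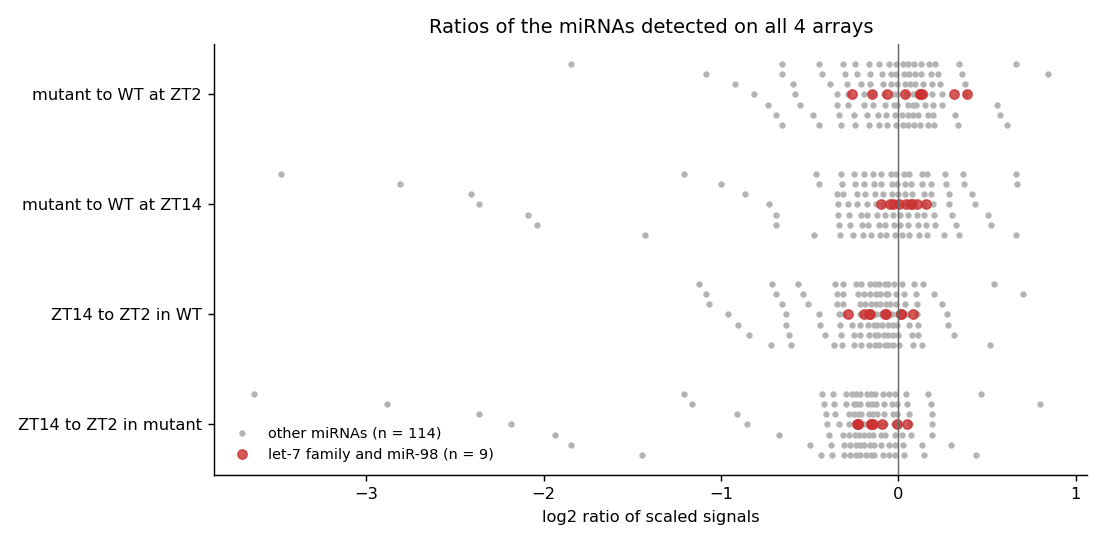
Log2 ratio of scaled signals for the 123 miRNAs detected on all 4 arrays, in the genotype and time comparisons. Each grey point is 1 of the 114 other miRNAs, spread vertically only to keep points apart, and each red point is 1 of the 9 members. The members lie inside the range of the other miRNAs in every comparison, and at ZT2 the 2 members farthest to the right are let-7b (0.39) and let-7c (0.31).

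In a limma model of the 4 arrays, genotype and time point were additive terms, which leaves 1 residual degree of freedom. For genotype, limma called 0 of the 123 shared miRNAs at an adjusted p under 0.05 (0%), and 10 (8.13%) had an unadjusted p under 0.05. No member was among them. The largest differences between mutant and WT in the family were those of let-7c, 0.24 on the log2 scale (SE 0.13, limma adjusted p = 0.49), and let-7b, 0.23 (SE 0.15, limma adjusted p = 0.57). Over the members the difference ran from -0.09 (let-7e) to 0.24, with a median of 0.04 beside -0.02 over the 123. For time point, limma called 0 of the 123 (0%), 12 (9.76%) had an unadjusted p under 0.05, and again no member was among them. The difference of ZT14 minus ZT2 was below 0 for all 9 members under the 75th percentile of the shared miRNAs, from -0.21 for let-7i (SE 0.12, limma adjusted p = 0.52) to -0.06 for let-7c. The median was -0.09, beside -0.15 over the 123, and the difference of let-7i turned to 0.19 with the percentile of all 611 miRNAs. A p that misses the threshold with 1 array per condition does not show that the levels were alike.

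The miRNAs encoded next to let-7 genes were measured for comparison. They belong to the miR-99 and miR-125 families, whose genes sit beside let-7 genes in many animals. The list was made with the values of these arrays known and supports nothing on its own. The scaled levels of miR-99a, encoded next to let-7c on chromosome 16, were 0.345 (WT) and 0.443 (mutant) at ZT2, and 0.317 and 0.381 at ZT14. The log2 ratios of mutant to WT were 0.36 (spot SD 0.12) and 0.26 (spot SD 0.13), next to 0.31 and 0.16 for let-7c. On chromosome 15, the second place of let-7c, its neighbour let-7b had 0.39 and 0.08.

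On chromosome 9, the neighbours of let-7a had higher ratios than let-7a itself. miR-125b-5p stood at 0.845 and 1.07 in WT and mutant at ZT2 and at 0.846 and 1.03 at ZT14. This gives log2 ratios of 0.34 (spot SD 0.099) and 0.29 (spot SD 0.091). Whether its signal came from *Mir125b-1* alone was not tested. miR-100 stood at 0.108 and 0.165 at ZT2 and at 0.0979 and 0.139 at ZT14, with log2 ratios of 0.61 (spot SD 0.21) and 0.50 (spot SD 0.30). let-7a, which is also made from chromosome 13, had 0.12 and 0.10. let-7d and let-7f, its neighbours there, had 0.13 and 0.04 at ZT2.

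On chromosome 17, both neighbours were lower in the mutant at ZT2 on this scale. miR-125a-5p stood at 0.0714 and 0.0523 in WT and mutant at ZT2 and at 0.0755 and 0.0597 at ZT14. The log2 ratios were -0.45 (spot SD 0.34) and -0.34 (spot SD 0.43), beside -0.26 and 0.07 for let-7e. At ZT14 the ratio of miR-125a-5p was within its spot SD. miR-99b was not detected in WT at ZT14, and its ratio at ZT2, -0.45, was well within its spot SD of 1.15. miR-98 and let-7f, which share a cluster on chromosome X, had ratios of -0.15 and 0.04 at ZT2 and of 0.01 and 0.05 at ZT14.

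**Figure D5:**
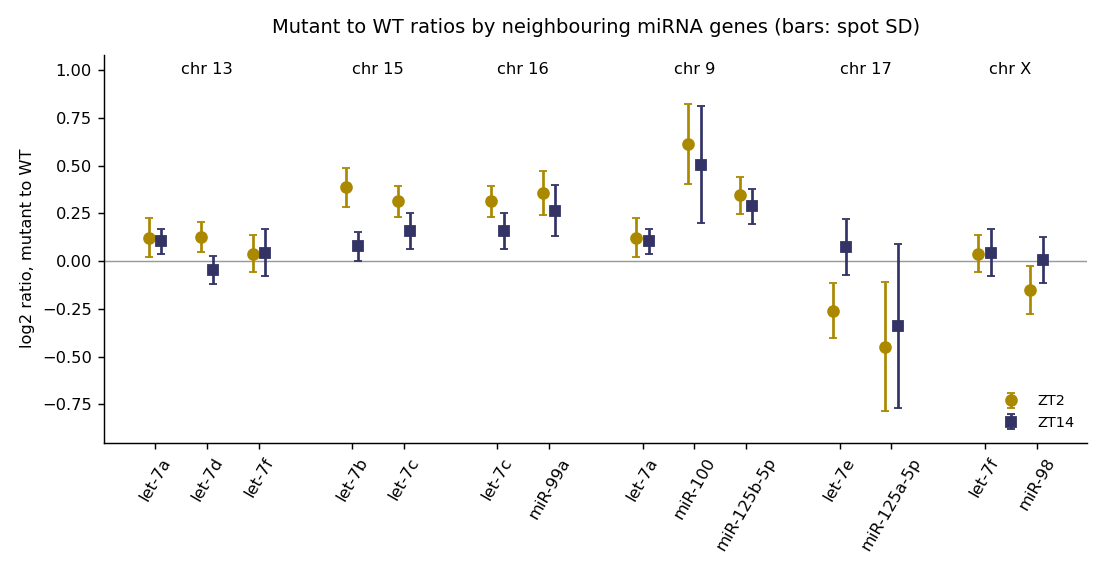
Log2 ratio of *Clock* mutant to WT for miRNAs whose genes are neighbours, grouped by chromosome, at ZT2 (circles) and ZT14 (squares). Bars are the combined spot SD, and members made from genes on 2 chromosomes appear under both. miR-99a (0.36), miR-100 (0.61) and miR-125b-5p (0.34) lie above 0 at ZT2 with let-7b (0.39) and let-7c (0.31), and miR-125a-5p (-0.45) lies below 0 with let-7e (-0.26).

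The star strands of the family were near or below the limit of detection. Of 7 on the array, 2 were detected on at least 1 array. The intensity of let-7b* was 15.5 and 15.3 units in WT and mutant at ZT2 and 14.3 and 13.96 units at ZT14. let-7f* was detected on 3 arrays, at 16.03, 13.6 and 14.98 units. It had no detection call in the mutant at ZT14, though its intensity there was 14.59 units. let-7b* differed little between the arrays before scaling, while the dominant strand let-7b had 1482, 1816, 993 and 1653 units on the same arrays.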

How the data were processed

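Liver RNA was hybridised to Agilent 1-colour miRNA arrays, 1 array per condition. The deposited scanner files, made with Feature Extraction 10.7.1.1 per the labels and file headers, hold a background-subtracted intensity per spot, flags for outlier spots and a detection call. The authors also deposited a log2 table per miRNA, used only as an alternative. It served for the genotype ratios at each time point, their change between the times, and the limma model for genotype. Its offsets per array differ between the time points. The median log2 ratio of mutant to WT over the 123 shared miRNAs was 0.80 at ZT2 and 0.64 at ZT14 in this table. With the scaling used here it was -0.01 and -0.03.

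Intensities (gProcessedSignal) without outliers were averaged over the spots of a probe, then over probes, scaled to the 75th percentile of the 123 miRNAs with a detection call on every array, and converted to log2 after a floor of 1 intensity unit. Ratios of 2 arrays carry the spot SD, the SD over spots and not its SE. limma 3.58.1 in R 4.3.3, with Benjamini-Hochberg adjustment over the 123, was checked on simulated data. The other steps ran in Python 3.11.15 (pandas 2.3.3, numpy 2.4.6, matplotlib 3.10.9). As 10 alternatives, the signals were left unscaled, scaled by the percentile of all 611 miRNAs, the median or the spike-ins, quantile normalized, or background-corrected by normexp (offset 50). Outlier spots were kept, the brightest probe or the summed signal per miRNA was used, or the table of the authors was taken. Sequences and places came from RefSeq tables of GRCm38.p6, matched by miRNA name with the 5p arm.

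The miRNAs nearest to the family were the 5 with the smallest Euclidean distance to the mean of the members over the 4 arrays, each centred on its own mean. Cell type lists held miRNAs of hepatocytes, muscle, red blood cells, leukocytes, bile duct epithelium and endothelium. The members and lists were chosen with earlier results of these data known. The small number of arrays limits precision, and 0 spots were saturated.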

Additional observations from a re-analysis of the deposited data

Results flagged for a closer look

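In 4 members the log2 ratio of mutant to WT had opposite signs at ZT2 and ZT14, with 1 array per condition and no test of the difference. The ratio at ZT14 minus that at ZT2 was -0.17 for let-7d, 0.33 for let-7e, -0.16 for let-7g and 0.16 for miR-98. The ratio of ZT14 to ZT2 had opposite signs in WT and mutant in 4 members, by -0.31 for let-7b, -0.16 for let-7c, -0.17 for let-7d and 0.33 for let-7e (mutant minus WT), again not tested. Opposite signs occurred in 45 of the 123 shared miRNAs (36.6%) in each comparison. The signs depend on the scaling, and with the percentile of all 611 miRNAs 0 members had opposite signs in either comparison, as in the table of the authors at ZT2 and ZT14. The ratio of mutant to WT at ZT14 was within its spot SD for let-7d, let-7e, let-7g and miR-98. The ratio of ZT14 to ZT2 was within its spot SD in WT for let-7b, let-7c and let-7d, and in the mutant for let-7e. No change of sign was therefore beyond the spot SD on both sides. For miR-98 the difference between the times was also within its spot SD of 0.17.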

How the results depend on the processing

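Alternatives that divide or shift each array by 1 number (6 of the 10) moved all members together. Quantile normalization, normexp, the brightest probe and kept outlier spots can also change the differences between members. With quantile normalization, a member of the same rank on both arrays has a ratio of 0 by construction. The median log2 ratio of the members at ZT2 (0.12) became 0.43 with the percentile of all 611 miRNAs, 0 with quantile normalization, -0.10 with the summed signal, -0.0027 with the brightest probe and 0.93 in the log2 table of the authors. At ZT14 (0.05) it became 0.70 with no scaling, 0.56 with the percentile of all 611 miRNAs, 0.86 with spike-in scaling and 0.72 in the table of the authors. For ZT14 to ZT2 in WT (-0.07) the values were -0.73, 0.22 and -0.80 with no scaling, the percentile of all 611 miRNAs and spike-in scaling, 0.15 with median scaling and -0.17 with the summed signal. In the mutant (-0.15) they were -0.064, 0.34 and -0.0099 in the same 3 settings, 0.052 with median scaling, 0 with quantile normalization and -0.0053 with the brightest probe. The median of the 123 also moved with these settings. At ZT2 it was 0.30 with the percentile of all 611 miRNAs and 0.80 in the table of the authors. It was -0.18 there with the summed signal and -0.16 with the brightest probe. At ZT14 it was 0.63 with no scaling and 0.64 in the table of the authors. In those values of the authors, let-7b and let-7c (2 members) reached 2-fold at ZT2, and limma called 9 members for genotype, among 79 of the 123. The median of the 123 was above 0 at both times in that table, and the part of this shift in the calls was not tested. With spike-in scaling 1 member, let-7e, was at least 2-fold lower at ZT14 in WT. The limma difference of let-7i for time point turned to 0.19 with the percentile of all 611 miRNAs and to 0.0054 with median scaling. With 1 array left out, only genotype or time point alone could be fitted, with a lone array in 1 arm assumed to vary like the rest. limma called 0 members there, which says nothing about stability, and the genotype difference of let-7c was 0.16 to 0.31. No paired analysis was possible because the labels number no replicates, beyond time point as a term of the limma model. With genotype alone, the limma adjusted p of let-7c was 0.66. Negative control spots averaged 5.24 to 9.72 units, and background handling moved the dim members: with normexp, the time ratio in WT was 0.12 for miR-98 (from -0.17) and -0.03 for let-7e (from -0.28).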

Other observations

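Over the 4 arrays, each miRNA centred on its own mean log2 level, the miRNAs nearest to the mean of the members were miR-192, an abundant miRNA of liver and gut, at a Euclidean distance of 0.031, miR-15a at 0.049, miR-126-3p, an endothelial miRNA, at 0.070, miR-140 at 0.084 and miR-7a at 0.091. The median distance over the other shared miRNAs was 0.27. The mean of the members was 0.02 (WT) and 0.09 (mutant) at ZT2, and -0.07 and -0.04 at ZT14, and miR-192 had 0.02, 0.12, -0.09 and -0.04 on the same arrays. These are descriptions over 4 arrays, with no test. The summed scaled level of the endothelial list was 3.91, 4.25, 3.72 and 3.61 on these arrays.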
